A study of Caenorhabditis elegans with 60 samples.

Results

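The comparison described here sets small RNAs of Caenorhabditis elegans rde-1 mutants that were oxidized with sodium periodate against untreated small RNAs of the same mutants. Its members are the 6 libraries of those groups, 3 untreated and 3 oxidized, of 60 in the series. They were read across every row of the deposited rde-1 table with a mean of at least 10 normalized counts over the 6 libraries, which kept 12034 of 23345 rows. The rows are grouped by their own prefix: 5619 piRNAs, 211 microRNA arms, 2314 loci prefixed mut, 3404 loci prefixed csr, 440 loci prefixed alg and 46 loci prefixed ergo. All 2314 mut rows are also listed as WAGO target genes in another table of the series, and they are called WAGO loci here. The other prefixes are read as targets of the Argonautes CSR-1, ALG-3/4 and ERGO-1.

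All 6 libraries come from whole worms of genotype rde-1(ne219) V, grown at 20 C on OP50 bacteria, and all were treated with RNA polyphosphatase, which lets the triphosphorylated 22G-RNAs be cloned. A further 3 untreated and 3 oxidized wild type libraries serve for comparison. The labels disagree on the worms' stage. The untreated worms are L4 larvae of 52 h in every field. The oxidized samples, rde-1 and wild type alike, are L4s in the sample description but gravid adults of 68 h in the source field. If the source field is right, oxidation and stage cannot be told apart in either genotype.

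Small RNAs guide Argonaute proteins to complementary transcripts. In C. elegans the methyltransferase HENN-1 adds a methyl group to the last ribose of the piRNAs bound by PRG-1 and of the 26G-RNAs bound by ERGO-1, whereas most microRNAs, the 22G-RNAs bound by WAGO proteins and CSR-1, and the sperm 26G-RNAs bound by ALG-3/4 carry an unmodified end. Periodate oxidizes the unmodified end, and an oxidized RNA is ligated poorly into a library. The change of a small RNA's share on oxidation is therefore used to read out its end's protection, relative to the other small RNAs. RDE-1 is the Argonaute that takes up small RNAs cut from exogenous double-stranded RNA and a few microRNAs.

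The 6 rde-1 libraries held between 6311071 and 13613629 reads over the listed rows. Untreated replicate 2 was the shallowest of them. The rde-1 genotype was checked on Y47H10A.5, a gene whose 22G-RNAs depend on RDE-1 and miR-243. It had 1.91, 6.34 and 1.62 RPM (its recovered reads as a share of all listed reads of the library, on the usual RPM scale) in the untreated rde-1 libraries and 1.60, 0.394 and 0.652 in the oxidized ones. Wild type libraries had 2045, 1463 and 1146 untreated and 517, 237 and 89.0 oxidized, so every rde-1 library fits its genotype label. Of the stage markers, arms of the mir-35 family, an oocyte and embryo family, made up 0.410% to 0.557% of the microRNA reads in untreated rde-1 libraries and 0.625% to 0.800% in oxidized ones. Arms of let-7, mir-48, mir-84 and mir-241, which rise in late larvae, made up 1.59% to 2.28% and 3.45% to 5.19%. Rows of the spermatogenesis class ALG-3/4 made up 0.401% to 0.609% and 0.167% to 0.330% of the WAGO, CSR-1 and ALG-3/4 reads. The groups did not overlap on any of these 3 measures. In oxidized libraries they are shares of the reads left after oxidation, and arms and classes dropped unevenly, as described below. These shares therefore cannot tell stage from oxidation, and the part of stage in the results was not tested.

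Oxidation turned the composition of the rde-1 libraries over. piRNAs held 5.84%, 5.36% and 5.12% of the listed reads in untreated replicates 1 to 3 and 55.2%, 61.9% and 58.5% in the oxidized ones. The mean went from 5.44% ± 0.368 (SD, n = 3) to 58.5% ± 3.37 (SD, n = 3), which is 10.8-fold. ERGO-1 loci, the other class known to be methylated, went from 0.0147% ± 0.00441 to 0.203% ± 0.0527, or 13.8-fold. microRNAs moved the opposite way, from 50.9%, 47.7% and 37.6% to 9.90%, 5.53% and 5.68%. Untreated replicate 3 was the lowest in microRNAs, and oxidized replicate 1 kept the largest microRNA share. CSR-1 loci went from 12.6% ± 3.82 to 4.61% ± 0.956, and ALG-3/4 loci from 0.231% ± 0.0321 to 0.0797% ± 0.0311. WAGO loci moved least, from 36.3% ± 3.45 to 29.6% ± 0.790. In each of the 6 classes the untreated and oxidized libraries did not overlap, and a two-sided exact permutation test gave p = 0.1 (adjusted p = 0.1 over the 6 classes), the smallest p that 3 libraries against 3 allow.

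**Figure D1:**
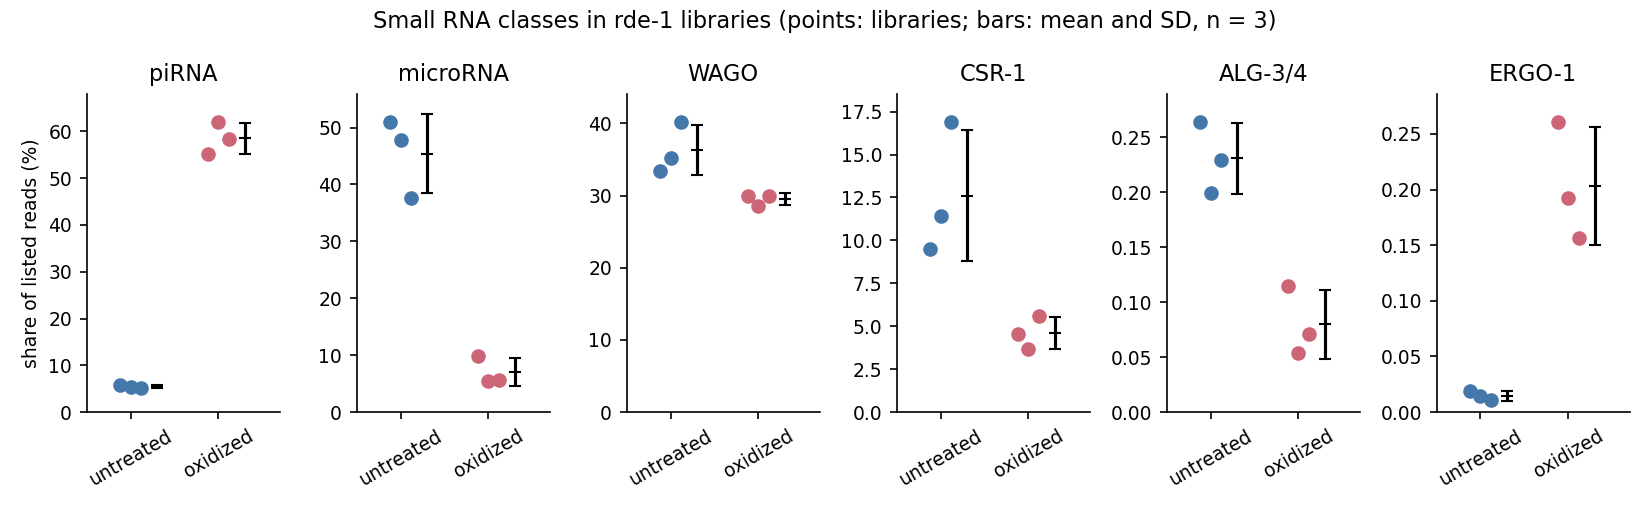
Share of all listed reads, in percent, taken by each small RNA class in the 3 untreated and 3 oxidized rde-1 libraries. Points are libraries and bars give the mean and SD (n = 3). piRNAs go from 5.44% to 58.5% and microRNAs from 45.4% to 7.04% on average, and no class overlaps between the groups.

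Shares within a library depend on one another, so each class was also set against the piRNA reads of its own library, a ratio that no scaling changes. There were 8.71, 8.90 and 7.35 microRNA reads per piRNA read in the untreated libraries and 0.179, 0.0893 and 0.0972 in the oxidized ones, a 71.5-fold drop. The ratio dropped 32.5-fold for ALG-3/4 loci, 29.0-fold for CSR-1 loci and 13.2-fold for WAGO loci. For ERGO-1 loci it was 0.00331, 0.00267 and 0.00207 before and 0.00472, 0.00311 and 0.00268 after oxidation. These ERGO-1 groups overlapped (two-sided exact permutation p = 0.4), while the other 4 ratios reached the smallest possible p of 0.1.

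Row by row, limma on log2(normalized count + 1) called 3738 rows higher and 3123 lower at an adjusted p under 0.05, which is 31.1% and 26% of the rows tested. The deposited scaling takes the median row as nearly still, with a median log2 change of 0.03 over all rows. With the libraries scaled instead so that the piRNAs detected in every library held still, the median row shifted to -2.21, and 1063 rows were called higher and 6944 lower. The share of calls that were increases then went from 54.5% to 13.3%. Directions below are therefore relative to the deposited scaling, and the order of the classes does not depend on it. Leaving out untreated replicate 3 took the lower calls from 3123 to 1811.

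**Figure D2:**
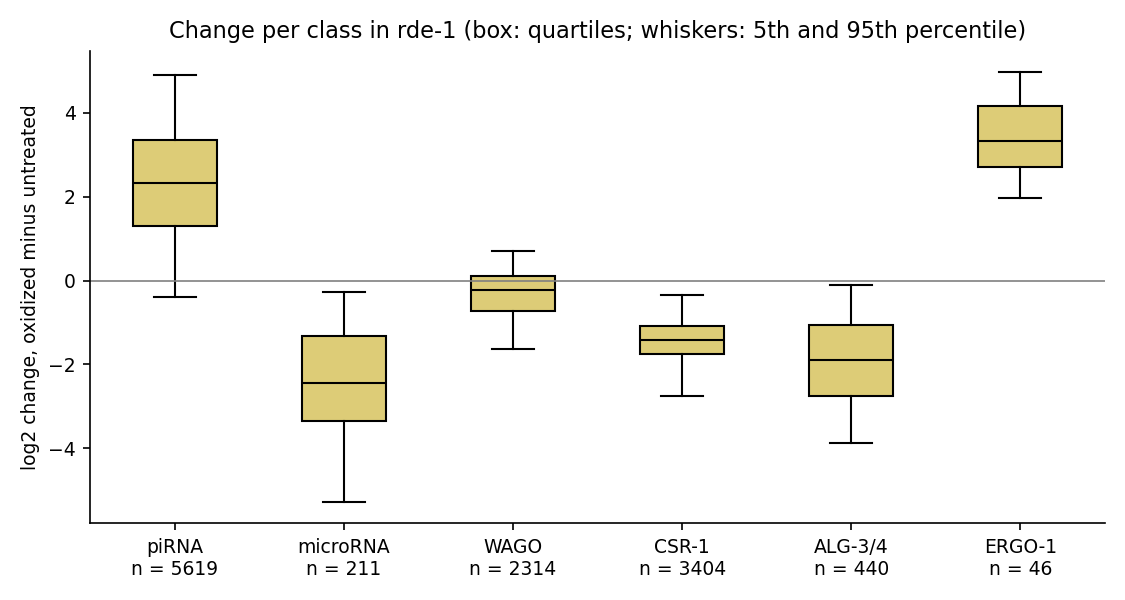
Log2 change on oxidation, oxidized minus untreated rde-1 libraries, for the rows of each class. Boxes span the quartiles with the median as a line, and whiskers reach the 5th and 95th percentiles. The medians run from 3.34 for ERGO-1 loci and 2.32 for piRNAs down to -2.44 for microRNA arms.

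piRNAs, the genome-encoded guides of PRG-1 in the germline, rose as a class. Of 5619 tested, 3520 were higher and 18 lower, that is 62.6% higher against 31.1% over all rows, and the median log2 change was 2.32. The filter kept 5619 of 15366 listed piRNAs, and 1530 of these passed it with an untreated mean under 10, so only through the oxidized libraries. These 1530 gave 809 of the 3520 higher calls. The most abundant was 21ur-669, with 3169, 3410 and 3043 normalized counts in the untreated libraries and 237350, 346530 and 193440 in the oxidized ones. It rose by 6.29 on the log2 scale (SE 0.20, adjusted p = 7.5e-08 by limma). The next, 21ur-5107, went from 7435 ± 401 to 249490 ± 54941 (SD, n = 3). The lowest oxidized library lay far above the highest untreated one for both.

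The largest increases among well-measured piRNAs were those of 21ur-11071, 21ur-2999 and 21ur-5594. For 21ur-2999 the untreated libraries had 446, 370 and 265 normalized counts and the oxidized ones 36930, 53608 and 34564, a log2 change of 6.86 (SE 0.23, adjusted p = 7.9e-08 by limma). 21ur-5594 went from 42.5 ± 10.9 to 5351 ± 3510 and varied the most among the oxidized replicates, with 9117 in replicate 2 and 2171 in replicate 3. 21ur-11071 had no read in untreated replicate 2 and 647, 959 and 992 normalized counts after oxidation.

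In the median, the most abundant piRNAs rose furthest. By the mean of the 6 libraries, 238 of 1167 piRNAs between 10 and 20 were higher (median log2 change 1.71), against 958 of 997 between 200 and 1000 (2.75) and 140 of 140 from 5000 up (4.61). That mean is itself set mostly by the oxidized libraries. The piRNAs were split instead by their level in dissected wild type gonads, which are other samples. Those under 10 had a median of 2.25 (n = 4006), those from 10 to 20 one of 2.15 (n = 534) and those from 20 to 50 one of 2.32 (n = 514). From 50 to 200 it was 2.69 (n = 418), from 200 to 1000 3.48 (n = 129) and from 1000 to 5000 3.95 (n = 18). The medians thus hardly differed under 50 and were higher above it. The log2(normalized count + 1) scale also understates changes of low rows. The piRNA pool was also more uneven after oxidation: the 10 most abundant piRNAs held 6.71%, 7.49% and 8.09% of piRNA reads in untreated libraries and 21.2%, 24% and 18.7% in oxidized ones. Despite their roughly 10.8-fold larger piRNA share, the oxidized libraries detected 7492, 7555 and 6798 different piRNAs, against 9271, 5360 and 8665 in the untreated ones.

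Against the class, 18 piRNAs fell. Of the tested piRNAs, 64 had an oxidized mean under 10, so they passed the filter only through the untreated libraries. These 64 gave 8 of the 18 lower calls. The one of lowest adjusted p was 21ur-8950, with 457, 229 and 382 normalized counts untreated and 14.5, 33.9 and 51.3 oxidized, which fell by 3.49 on the log2 scale (SE 0.50, adjusted p = 5.4e-04 by limma). 21ur-13680 fell from 385 ± 103 to 86.8 ± 44.5. 21ur-3327 fell from 114 ± 27.7 to 51.3 ± 27.5, with an adjusted p of 0.049 by limma that 10 of its alternatives did not keep. 21ur-13684, named after its values were seen, had 28.4, 38.4 and 39 untreated and no read in any oxidized library. It is among those 8. Of these 18, 16 could also be compared in wild type: all 16 had a negative log2 change there and 8 were called lower.

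ERGO-1 loci, most of them recently duplicated genes and pseudogenes that ERGO-1 and its 26G-RNAs silence, had the highest median change among tested rows. In reads per piRNA read, as given above, their untreated and oxidized libraries overlapped. Of 46 tested, 39 were higher and none lower (84.8% against 31.1% of all rows), with a median log2 change of 3.34. Only 46 of 123 listed ERGO-1 rows passed the filter, and 20 of the 46 had an untreated mean under 10, so they passed through the oxidized libraries, where they are high. These 20 gave 16 of the 39 higher calls. The count and median therefore do not describe all ERGO-1 rows. T16A1.9 had 154, 167 and 110 normalized counts untreated and 4278, 4078 and 3470 oxidized, a log2 change of 4.78 (SE 0.20, adjusted p = 2.7e-07 by limma). ZK380.5 went from 78.1, 66 and 63.6 to 2488, 2068 and 2055, a change of 4.97 (SE 0.20, adjusted p = 2.0e-07). Y17D7C.3, the most abundant row after oxidation, went from 187 ± 81.9 to 4611 ± 1796. The largest changes were those of Y116A8B.1 (5.74) and Y116F11A.1 (5.73), both from fewer than 25 counts in any untreated library. Of the 7 rows that missed the threshold, 6 were also higher in the mean, and only Y53F4B.24 was lower, at 31.1, 18.4 and 11.7 before and 8.70, 4.67 and 0 after. The same values stand in an ALG-3/4 row of that locus.

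Many of these loci also have a WAGO row. ERGO-1 26G-RNAs are known to lead to the making of WAGO 22G-RNAs on the same transcripts. In 474 of 474 comparisons over 79 shared loci and 6 libraries the ERGO-1 row did not exceed the WAGO row, and whether the WAGO row counts the ERGO-1 reads is not stated. Of the 42 loci with both rows tested, the ERGO-1 row rose at 37 and fell at none, whereas the WAGO row fell at 25 and rose at 4. Over all 77 tested WAGO rows with a listed ERGO-1 row 39 fell, against 512 of the 2237 without one, and this difference was not tested. At 21 loci the WAGO row fell while the ERGO-1 row rose. Y17D7B.4 is one: its WAGO row went from 29658 to 10448 normalized counts in the mean, and its ERGO-1 row from 32 to 513.

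The ERGO-1 row was then subtracted from the WAGO row of its locus, a step chosen after the data were seen. It presumes that the WAGO row counts the ERGO-1 reads. The remainder was called lower at 34 of these 42 loci and higher at none, with a median log2 change of -1.30 and a range of -4.0 to -0.08. Taking away a row that rose at most loci lowers the change of the remainder by construction, so the added lower calls are no separate result. At T16A1.9 the WAGO row rose from 337, 373 and 266 to 4454, 4333 and 3581, but the remainder was 181 ± 24.9 before and 181 ± 71.8 after (SD, n = 3; adjusted p = 0.86 by limma). At ZK380.5 the WAGO row was 1985 and 3172 in the mean, and the remainder fell from 1916 to 968 (adjusted p = 7.1e-04 by limma). Summed over the 42 loci, the ERGO-1 rows equalled 0.811% of the WAGO rows before oxidation and 26.1% after.

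**Figure D3:**
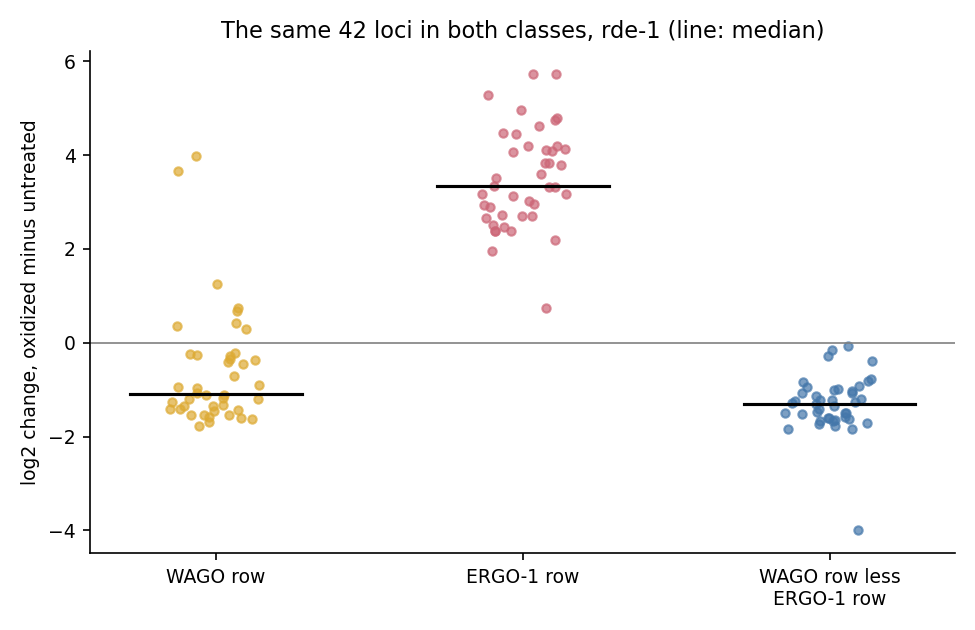
Log2 change on oxidation in rde-1 at the 42 loci listed in both classes, as the WAGO row, the ERGO-1 row and the WAGO row less the ERGO-1 row. Each point is a locus, jittered sideways, and the line is the median. The medians are -1.09, 3.34 and -1.30, and all remainders lie below 0.

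Of the list of named ERGO-1 target genes, 11 of 13 ERGO-1 rows rose (median 3.83) and 14 of 18 WAGO rows fell (median -1.11). Over all tested rows of those classes 84.8% of ERGO-1 rows rose and 23.8% of WAGO rows fell. Among them, ZK402.3 had 24, 12.3 and 14.3 normalized counts untreated and 393, 266 and 230 oxidized in its ERGO-1 row. The WAGO row of its neighbour in name, ZK402.5, went from 4238 ± 111 to 1580 ± 247, a log2 change of -1.43 (SE 0.15, adjusted p = 8.1e-05 by limma). Members of this list that share sequence, such as C36A4.11 and K06B9.6, had identical WAGO values and are not separate measurements.

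microRNAs fell as a class: 154 of 211 arms were lower and 3 higher, 73% lower against 26% over all rows, and the median log2 change was -2.44. The most abundant arm was miR-58-3p, a member of the family related to bantam. It had 983030, 848530 and 655650 normalized counts untreated and 102580, 70732 and 51981 oxidized, so the groups were far apart, and it fell by 3.50 on the log2 scale (SE 0.25, adjusted p = 6.8e-06 by limma). The next, miR-70-3p, went from 522700 ± 207790 to 87691 ± 50172. Of the 79 arms with an untreated mean of at least 1000, 73 were lower and none higher. Their changes ran from -6.16 to -0.23. Picking arms by their untreated level favours those that fell.

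The drop was uneven between arms. lin-4-5p, which times larval development, went from 219300, 225230 and 204820 normalized counts to 47825, 33488 and 30952 (log2 change -2.56, SE 0.18, adjusted p = 5.1e-06 by limma). Its family member miR-237-5p changed by -2.48. miR-60-3p, an intestinal microRNA, went from 3566, 2393 and 1559 to 52.2, 40.9 and 89.8, a change of -5.34 (SE 0.37). The neuronal miR-124-3p went from 461 ± 110 to 28.0 ± 13.5. The largest decreases by the naming rule were those of miR-360-5p and miR-70-5p, neither of which had a read in any oxidized library, and of miR-239a-5p, at 1788, 841 and 748 before and 0, 36.2 and 81.2 after.

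At the other end, 54 arms passed no threshold. miR-77-5p had 2192, 2794 and 1469 normalized counts untreated and 2333, 1726 and 1396 oxidized, and these groups overlapped (adjusted p = 0.48 by limma). It and miR-260, at 505 and 394 in the mean, were picked after their values were seen.

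By family, 10 of 12 arms of the let-7 family fell (median -2.11), 3 of 4 of the lin-4 family (-2.52), 8 of 11 of the mir-35 family (-1.89), 8 of 11 of the mir-51 family (-3.01), 7 of 8 of the mir-58 family (-1.5), 8 of 9 of the mir-64 family (-2.90) and 4 of 5 of the mir-2 family (-2.96). None rose. Of the tissue microRNAs, 10 of 20 arms fell (-2.39). Over all 211 tested arms 73% fell, with a median of -2.44, and over all rows 26% fell. No family was tested against these shares. Members of one family differed: within the mir-35 family miR-40-3p changed by -3.15 and miR-39-3p by -2.65, but miR-36-3p by -1.18 and miR-37-3p by -1.26. Within the mir-58 family miR-82-3p changed by -0.67 (adjusted p = 0.034 by limma) against -3.50 for miR-58-3p. miR-52-5p and miR-56-3p of the mir-51 family changed by -3.70 and -3.08, miR-64-5p and miR-65-5p of the mir-64 family by -3.11 and -2.40, and miR-250-3p of the mir-2 family by -3.94. Differences between arms were not tested.

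Only 3 annotated microRNA arms rose. miR-78 had 224, 299 and 256 normalized counts untreated and 2960, 4513 and 3136 oxidized, a log2 change of 3.75 (SE 0.21, adjusted p = 1.3e-06 by limma), above the median piRNA. It also rose in wild type, by 3.37 (adjusted p = 1.0e-06). miR-4936 went from 122, 35.3 and 45.4 to 175, 128 and 153 (log2 change 1.36, adjusted p = 0.037), a call that 9 of its alternatives did not keep. miR-5549-3p rose from means of under 10 counts, by 3.68 (adjusted p = 0.016). In gonads of henn-1 mutants, a separate set of samples, neither miR-78 nor miR-4936 was lower than in wild type gonads: both were higher, by 0.68 and 1.44 on the log2 scale (adjusted p = 0.0016 and 1.3e-05 by limma). MicroRNA arms measured in both comparisons numbered 76, with 0 lower and 23 higher in henn-1 gonads (median log2 difference 0.27). Not being lower thus does not set miR-78 or miR-4936 apart from other arms. Of the 3040 piRNAs measured in both comparisons, 3 were lower and 2949 higher in henn-1 gonads (median log2 difference 2.81).

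**Figure D4:**
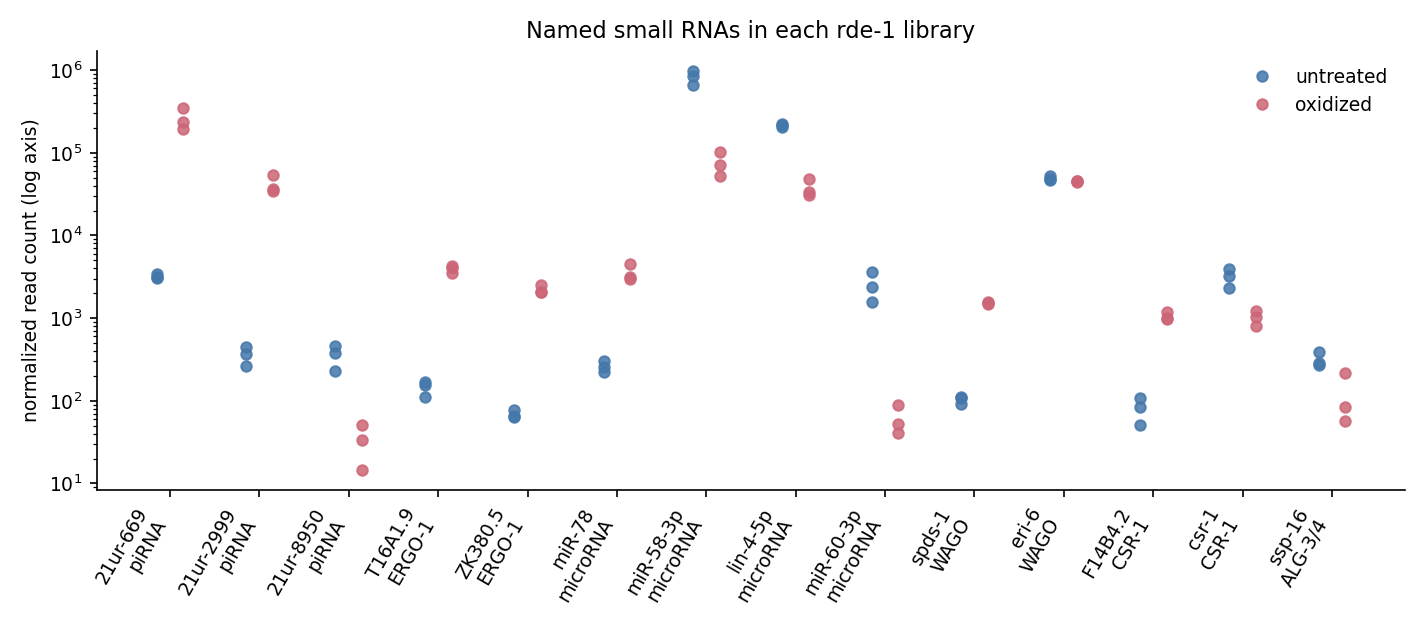
Normalized read counts, on a log axis, of 14 named small RNA rows in each untreated and oxidized rde-1 library, with the class under each name. Points are libraries. piRNAs 21ur-669 and 21ur-2999, both ERGO-1 rows, miR-78, spds-1 and F14B4.2 lie higher after oxidation, eri-6 changes little, and the other rows lie lower.

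WAGO loci, whose 22G-RNAs are made by RNA-dependent RNA polymerases in the mutator pathway, shifted little in the median (-0.22) and were called in both directions. Of 2314 tested, 551 were lower and 161 higher, 23.8% and 6.96%, both below the shares over all rows. The 2 most abundant did not pass the test: the transposon WBTransposon00000216 had 72510, 78349 and 88781 normalized counts untreated and 87603, 91294 and 93637 oxidized (adjusted p = 0.23 by limma), and eri-6, which acts in the ERGO-1 pathway and is itself a target, had 48815 ± 2880 and 45136 ± 839 (adjusted p = 0.43). Among called rows with a higher group mean over 104 and no overlap, the largest decreases were those of ZC434.7 (-3.55), Y17G9B.4 (-2.57) and F49B2.3 (-2.39), all of them under 200 counts in every library. Of 9 WAGO rows of histone genes 2 fell, his-60 from 336 to 132 and his-31 from 162 to 53.7. Without untreated replicate 3 the number of lower WAGO rows went from 551 to 350.

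A few WAGO loci rose far more than the rest. spds-1, the gene of spermidine synthase, had 92.3, 112 and 108 normalized counts untreated and 1473, 1510 and 1569 oxidized, a log2 change of 3.86 (SE 0.19, adjusted p = 5.8e-07 by limma). It has no ERGO-1 row. It rose in wild type as well, by 3.30, and in gonads it was lower in henn-1 mutants, with 49.7, 74.8 and 46.9 normalized counts, than in wild type, with 272, 301 and 254 (log2 difference -2.28, adjusted p = 1.9e-06 by limma). Y116F11A.1 (3.99) and T16A1.9 (3.67) rose as much. Both have an ERGO-1 row, whose oxidized mean equalled 95.7% and 95.6% of that of the WAGO row. Of the WAGO loci that rose, 96 of 159 were lower in henn-1 gonads, 60.4%, against 54.5% of all 2281 WAGO rows measured there. Over all 9456 rows tested in gonads, 15.9% were lower.

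CSR-1 loci, germline-expressed genes whose 22G-RNAs do not silence them, fell broadly and evenly. Of 3404 tested, 2294 were lower and 15 higher, 67.4% lower against 26%, with a median of -1.41 and quartiles of -1.76 and -1.09. csr-1 itself had 2309, 3213 and 3971 normalized counts untreated and 1034, 796 and 1213 oxidized, a log2 change of -1.63 (SE 0.23, adjusted p = 5.2e-04 by limma). Genes of the small RNA machinery moved with the class. Of the 11 CSR-1 rows of Argonaute genes 8 fell, ppw-2 by 1.63, and of the 11 of mutator and RNA-dependent RNA polymerase genes 10 fell, among them dcr-1 by 1.91 (431 ± 95 to 115 ± 27.9) and drh-1 by 1.78. Of 12 P granule genes 9 fell, pgl-1 by 1.88 and deps-1 by 1.52. The most abundant falling row, cls-2, went from 11144 ± 2936 to 5586 ± 363. By the same criteria the largest decreases were those of C16A3.5 (-4.71), fbxa-215 (-4.07) and tag-322 (-3.75). In untreated libraries CSR-1 counts were highest in replicate 3, and without it 1307 in place of 2294 rows were called lower.

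Only 15 CSR-1 loci rose. F14B4.2 had 85.2, 50.6 and 109 normalized counts untreated and 999.6, 1196 and 973 oxidized, a log2 change of 3.74 (SE 0.30, adjusted p = 1.3e-05 by limma), and it rose by 2.87 in wild type. amph-1 went from 33.6 ± 11 to 206 ± 84.8 and C07D8.6 from 24.8 ± 13 to 126 ± 61.9. Y37H9A.3, the most abundant CSR-1 row and also a WAGO row with the same values, rose by 0.45 (adjusted p = 0.031), a call that 9 alternatives did not keep and that turned to -1.86 with the piRNAs held still. RefSeq places annotated piRNA genes inside some of these loci. With a summed level of at least 10 in oxidized libraries, piRNA genes lay inside 6 of the 15 loci that rose (40%) and 8 of the 3354 other CSR-1 loci matched to RefSeq (0.239%). At WAGO loci the counts were 11 of 129 that rose (8.53%) and 24 of 1753 others (1.37%). The piRNA level and the calls come from the same oxidized libraries, so they are not independent. jac-1 and fkh-7 are among the 6, and F14B4.2 and amph-1 are not. jac-1, Y37A1B.17 and Y37H9A.3 have the same values in both classes and count in both. Inside jac-1 the piRNA genes summed to a mean of 84115 in oxidized libraries, against 1189 for the row. At fkh-7 they summed to 6619 against 169, but at Y37H9A.3 to 17 against 14012. The jac-1 and fkh-7 rows thus cannot hold all of those piRNA reads. Whether any of these rows counted some of them was not tested.

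ALG-3/4 loci, genes of spermatogenesis, fell in part. Of 440 tested, 106 were lower and none higher, 24.1% against 26% over all rows, although their median log2 change was -1.89. The filter kept 440 of 1407 listed rows, and 204 of these had an oxidized mean under 10, so they passed only through the untreated libraries. These 204 gave 75 of the 106 lower calls, so the count and median do not describe all ALG-3/4 rows. Most had few reads, with a median level of 19.2 counts. ssp-16, a sperm gene, had 392, 270 and 284 normalized counts untreated and 217, 84.1 and 56.4 oxidized (log2 change -1.61, SE 0.46, adjusted p = 0.016 by limma). C04G2.8 had 265, 193 and 332 before and 274, 121 and 292 after, and its groups overlapped (adjusted p = 0.56). Of 29 rows of sperm genes 7 fell, among them nspd-2 from 54.2 to 3.03, which passed the filter only through the untreated libraries. The largest decreases among rows of higher counts were those of C49C8.1 (-2.54), ZK616.8 (-1.96) and F40G12.10 (-1.93). This count rests on the replicates: it was 13, 38 and 24 without untreated replicates 3, 2 and 1, and 56 by edgeR on the recovered reads.

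The rde-1 and wild type tables were then set side by side to ask whether oxidation acted alike without RDE-1. The 2 tables were normalized separately, so effects were taken within each and then subtracted. The median difference (rde-1 minus wild type, log2) was 0.48 over all rows, 0.20 for piRNAs and 0.12 for ERGO-1 loci. It was 1.11 for microRNA arms, 0.94 for ALG-3/4 loci, 0.93 for CSR-1 loci and 0.45 for WAGO loci. In reads per piRNA read, microRNAs were 71.5-fold lower in rde-1 and 138-fold lower in wild type. After oxidation the ratio was 0.179, 0.0893 and 0.0972 in rde-1 and 0.0961, 0.0574 and 0.0336 in wild type, so the genotypes overlapped (two-sided exact permutation p = 0.2). For WAGO loci the oxidized ratio was 0.544, 0.463 and 0.513 in rde-1 and 0.405, 0.440 and 0.348 in wild type. For CSR-1 loci it was 0.0826, 0.0594 and 0.0956 in rde-1 and 0.0428, 0.0409 and 0.0287 in wild type. After oxidation the genotypes did not overlap in either class (two-sided exact permutation p = 0.1 each, the smallest possible). They overlapped for ALG-3/4 and ERGO-1 loci (two-sided exact permutation p = 0.4 and 0.9). Untreated CSR-1 ratios were 1.63, 2.13 and 3.29 in rde-1 and 1.43, 1.67 and 1.745 in wild type, which overlapped. Untreated WAGO ratios overlapped too, at 5.73, 6.58 and 7.84 in rde-1 and 6.60, 6.74 and 5.94 in wild type. On oxidation the CSR-1 ratio dropped 29.0-fold in rde-1 and 43.7-fold in wild type, and the WAGO ratio 13.2-fold and 16.2-fold. The difference between these drops was not tested.

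Few single rows differed between the genotypes. Of 11610 rows tested in both, 4 passed an adjusted p of 0.05 for the difference of effects (0.0345%), while 1877 had an unadjusted p under 0.05. Without wild type oxidized replicate 1 or 2 the number was 343 or 46. It was 2 without untreated rde-1 replicate 3 and 1 without oxidized rde-1 replicate 1 or 2. It was 0 without any of the other 7 libraries in turn.

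The only microRNA among the 4 was miR-240-5p. In rde-1 it had 87.9, 101 and 83.1 normalized counts untreated and 38.7, 127 and 89.8 oxidized, and the groups overlapped. In wild type it had 265, 279 and 280 untreated and 2721, 3515 and 3580 oxidized. Its log2 change was -0.24 in rde-1 (adjusted p = 0.68) and 3.56 in wild type (adjusted p = 1.9e-07), a difference of -3.80 (SE 0.47, adjusted p = 0.022 by limma). Under the alternatives the difference lay between -4.17 and -3.32 and its adjusted p between 0.0011 and 0.11, and it was 0.0048 by edgeR. As a share, miR-240-5p took 9.01, 10.5 and 9.40 RPM in untreated rde-1 and 23.9, 27.7 and 28.9 in untreated wild type.

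miR-240-5p is among the microRNAs most enriched with RDE-1. In 2 RDE-1 immunoprecipitates from worms with henn-1 it had 52943 and 58176 normalized counts, against 125 and 47.5 in the inputs, and ranked second of 141 arms measured in all 3 experiments. The 10 most enriched arms had a median difference between the genotypes of -0.15, and 6 of 10 were negative, against 1.16 and 11 of 131 for the other arms. Of the 141 arms 2 were higher after oxidation in wild type, miR-240-5p and miR-232-5p, and both were among the 10. None of the 141 was higher in rde-1. These counts go by the sign of the change. Outside these 141, miR-78, miR-4936 and miR-2214-3p were called higher in wild type. Over all 206 arms with a wild type value, 6 had a positive change there and 5 were called higher. miR-2214-3p was low, with 12.6, 1.85 and 1.47 normalized counts untreated and 74.5, 14.5 and 28.8 oxidized in wild type. It changed by 2.84 there and by -0.26 in rde-1, a difference of -3.09 that did not pass the test (adjusted p = 0.37 by limma), and its RDE-1 enrichment was not measured here. miR-232-5p had 36, 61.8 and 38.9 normalized counts untreated and 165, 175 and 250 oxidized in wild type, but 12.4, 32.2 and 6.49 and then 6.77, 0 and 11 in rde-1, and its difference of -3.82 did not pass the test (adjusted p = 0.19 by limma).

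miR-243-3p, the microRNA best known for its loading into RDE-1, did not share this pattern. In rde-1 it had 4355, 6020 and 2753 normalized counts untreated and 3107, 2166 and 1260 oxidized, and these groups overlapped. It fell by 1.03 (adjusted p = 0.034 by limma), a call that 5 alternatives did not keep, and by 1.14 in wild type. miR-243-5p fell by 1.62 in rde-1. Y47H10A.5, the target of miR-243 and RDE-1, was too low in rde-1 to compare, at 31.4 ± 26 and 9.64 ± 6.81 normalized counts (adjusted p = 0.17).

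**Figure D5:**
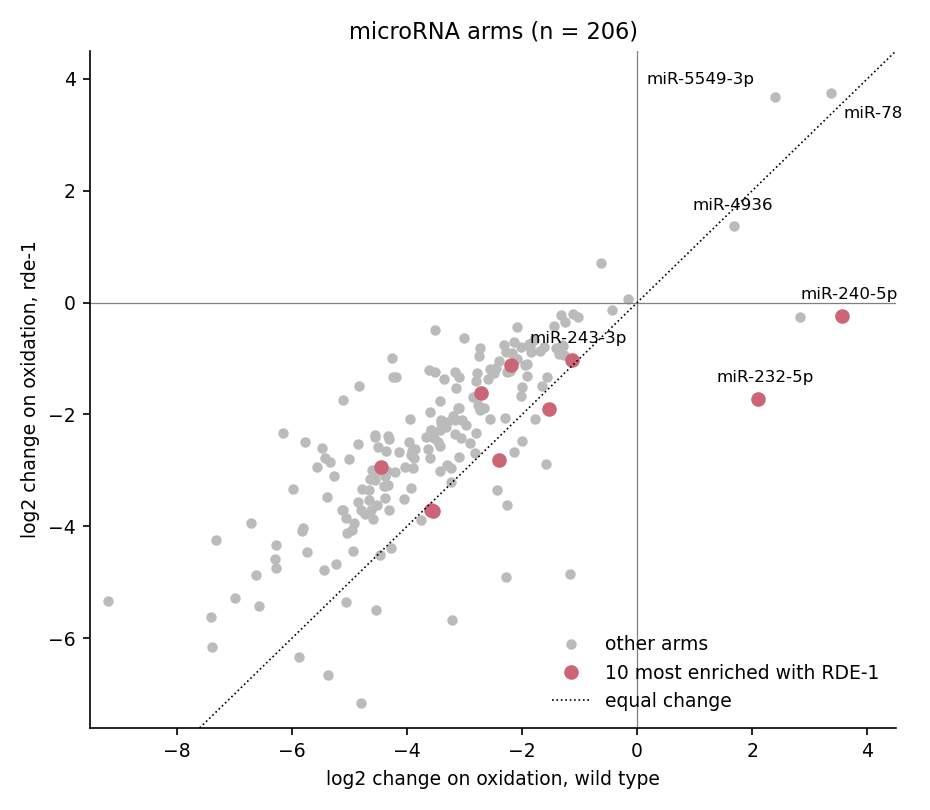
Log2 change on oxidation in wild type (horizontal axis) and in rde-1 (vertical axis) for 206 microRNA arms, with the 10 arms most enriched in RDE-1 immunoprecipitates in red and the dotted line at equal change. miR-240-5p (3.56 and -0.24) and miR-232-5p (2.10 and -1.72) lie far to the right of the line, and miR-78 lies close to it.

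The other 3 rows were WAGO loci that fell in wild type and fell less or not detectably in rde-1. W02B8.2 had 11096, 11152 and 13283 normalized counts untreated and 11775, 11129 and 11005 oxidized in rde-1, and 1788, 1785 and 1824 before and 863, 700 and 698 after in wild type. The difference of effects was 1.20 (SE 0.16, adjusted p = 0.024 by limma). Y102A5C.3 differed by 1.29 and Y16B4A.2 by 1.31. None of these 3 passed with the piRNAs held still (adjusted p = 0.79 each) or by edgeR (0.22 to 0.29). W02B8.2 also took a larger share of the untreated rde-1 libraries, 1138 to 1503 RPM against 161 to 188 in wild type.

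Age of the worms was looked at for WAGO loci through a wild type pair of unoxidized libraries, 1 of L4 larvae and 1 of adults. Over 2314 WAGO rows the adult over L4 ratio and the oxidation effect in rde-1 correlated weakly (Pearson r = -0.06, Spearman rho = -0.14, across loci that share libraries). The median oxidation effect was -1.37 for WAGO loci more than 2-fold lower in adults (n = 40) and -0.07 for those less than 2-fold lower (n = 715). It was -0.24 for those up to 2-fold higher (n = 900) and -0.52 for those more than 2-fold higher (n = 659). The lowest bin thus stands apart, and over the other 3 bins the effect was lower where the adult ratio was higher.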

How the data were processed

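Small RNAs were size-selected, treated with polyphosphatase with or without periodate oxidation, and sequenced. The authors deposited normalized counts per small RNA row, made with DESeq2 1.18.1 per the submitters' processing notes, and these values are treated as a signal. The aligner, genome build and counting rules: not given in the sources used here. Every value in the rde-1 and wild type tables was a whole multiple of the smallest value in its library (tolerance 0.1, 100% of values), so whole reads were recovered for read shares and for count tests.

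The main test was limma 3.58.1 (lmFit, eBayes with trend) on log2(value + 1) for rows with a mean of at least 10, with Benjamini-Hochberg adjustment over all 12034 rows. Fold changes on this scale understate changes of low rows. Differences between genotypes were fitted over 12 libraries. limma was also run on henn-1 and wild type gonads. Alternatives used edgeR 4.0.16, DESeq2 1.42.0, other scalings, pseudocounts and filters, and left out each library. The limma fit was tested on simulated data in which a small part of the rows changed, evenly in both directions. A shift of whole classes, as seen here, was not simulated. Class shares used two-sided exact permutation tests.

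Named rows are, per class, the 3 largest increases and 3 largest decreases among called rows whose groups do not overlap and whose higher mean passes 104 (the median over tested rows), the 2 most abundant rows, at most 2 members of each gene list (those with the lowest adjusted p), and miR-243 and Y47H10A.5. Members and lists were chosen with earlier results of these data known. Nothing in the labels gives separate cultures for the replicates, so the p-values reflect only the variation among these libraries, which may be technical. Replicates of one group differed by more than sampling noise (chi-square per degree of freedom 13.8 to 101). Same-numbered libraries showed little shared deviation (correlations 0.01, 0.01 and 0.21), so numbers were not used as pairs in the main fit. RefSeq names (WBcel235) matched 15363 of 15366 piRNAs. Sequences are not shown.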

Additional observations from a re-analysis of the deposited data

Results flagged for a closer look

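The oxidation effect differed between rde-1 and wild type at 4 of 11610 rows, by a test of the difference itself (limma, adjusted p under 0.05). For miR-240-5p the effect in rde-1 minus that in wild type was -3.80 on the log2 scale. For the WAGO loci W02B8.2, Y102A5C.3 and Y16B4A.2 it was 1.20, 1.29 and 1.31. Groups of 3 libraries are too small to look for single outlying libraries.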

How the results depend on the processing

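Counts of called rows stayed within 1.5 times of those reported under most alternatives. Holding the median piRNA still gave 1063 higher and 6944 lower rows, 1042 higher piRNAs, 2243 lower WAGO, 401 lower ALG-3/4 and 16 higher ERGO-1 loci, by its construction. Lower ALG-3/4 loci numbered 179 with no filter, 21 at a mean of at least 50 and 56 by edgeR. Leaving out single libraries gave 1811 to 3230 lower rows, 350 to 542 lower WAGO, 1307 to 2385 lower CSR-1 and 13 to 155 lower ALG-3/4 loci. The rows whose oxidation effect differed between genotypes numbered 4 as reported, 1 with the median piRNA held still, 1 with the replicate block, 1 by edgeR (chosen after seeing the data) and 0 to 343 with a library left out. In these 3 fits with 1 row the row was miR-240-5p. The cause of these changes was not tested, except where stated.

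With the replicate number as a block, 3843 rows were higher and 3449 lower, and none of the 71 named rows lost its call on oxidation. Of the 3 untreated libraries only replicate 3 correlated best with its own number. With 3 libraries per group this cannot settle whether the numbers pair the libraries. Of 1275 values of 71 named rows under alternatives, 1211 kept their direction and side of the threshold, 55 lost it, 5 gained it and 4 reversed: miR-4936 (-0.92) and Y37H9A.3 (-1.86) with the median piRNA held still, and the WAGO rows of Y116F11A.1 (-0.28) and T16A1.9 (-0.077) less their ERGO-1 rows. Class shares kept their direction in every leave-one-out. The median ALG-3/4 row had 19.2 counts, against 104 over all rows tested, and the part of depth in its calls was not tested.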
